A study of Mus musculus with 6 samples.

Results

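Serine synthesis and one-carbon metabolism are represented here by 9 enzyme genes, chosen by name, but with earlier results of these data known. Phgdh, Psat1 and Psph belong to serine synthesis, and Shmt1 and Mthfd1 to the cytosolic folate pathway. Shmt2, Mthfd2, Mthfd1l and Aldh1l2 belong to the mitochondrial folate pathway. These enzymes are 9 of the 31017 genes listed in the count table, and all 9 passed the filter on low counts. RNA was sequenced from mouse Th17 cells, helper T cells that secrete interleukin 17, differentiated in culture from wild-type cells (control, 3 libraries) or from cells deficient in RTF1 (KO, 3 libraries). RTF1 is a factor that works with the PAF1 complex on transcribing RNA polymerase II and promotes ubiquitination of histone H2B. The allele and what drives its deletion, the strain, age and sex of the mice, and the culture conditions are not given in the sources used here. Nor do these sources say whether the libraries of a group came from separate animals or cultures, so p-values measure the spread between these libraries, which may be partly technical.

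Cells make serine by diverting phosphoglycerate from glycolysis, and they break serine down to glycine to load a carbon unit onto tetrahydrofolate. In mitochondria that unit is oxidised and released as formate, which the cytosol reloads onto folate for purine, thymidylate and methionine synthesis. Activated and dividing T cells are known to rely on this route, and the transcription factors ATF4 and MYC are known activators of its genes.

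RNA of all 9 enzymes was lower in KO. The declines ran from about 2-fold for Psph, Shmt1 and Mthfd1 to 15.9-fold for Aldh1l2, with the others between 3.22-fold and 5.66-fold. Every one of the 9 passed edgeR's quasi-likelihood test (adjusted p under 0.05 over all genes tested), where 46.1% of the 14268 tested genes were called in either direction, 22.9% lower and 23.2% higher. All 9 were also at least 2-fold lower by the fitted value, against 11.0% of tested genes called lower by that much. The median log2 fold change of the 9 was −1.79, beside 0.013 over all tested genes. The 9 genes together took 0.147% to 0.213% of all counts in the control libraries and 0.0431% to 0.0759% in the KO libraries. RNA from bulk cultures cannot tell fewer cells expressing a gene from less RNA per cell.

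**Figure D1:**
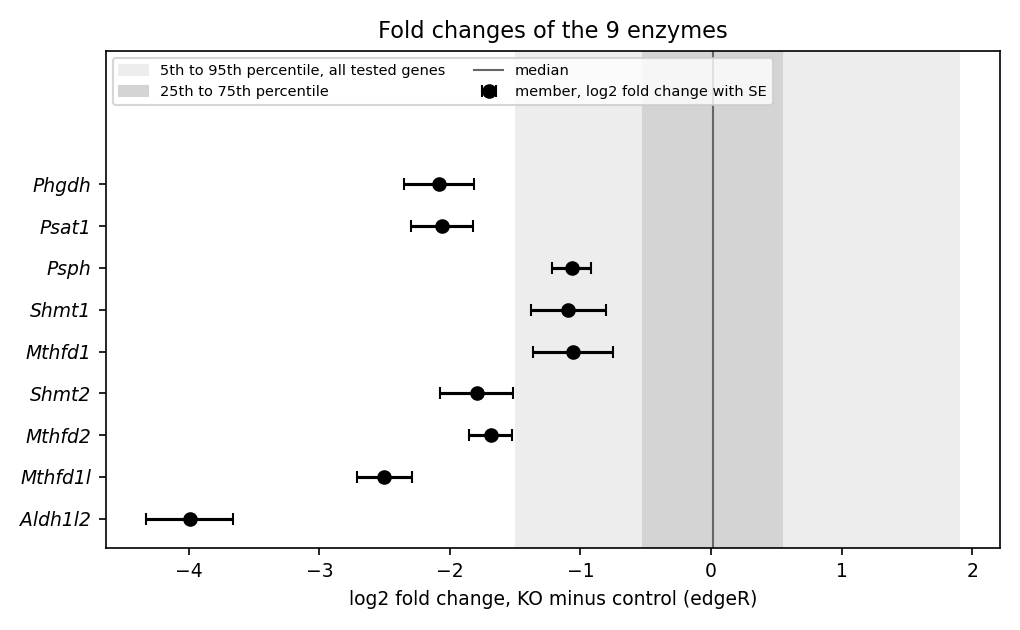
Log2 fold change (KO minus control) of each enzyme with its standard error, on the x axis, over grey bands that mark percentiles of all 14268 tested genes. Phgdh, Psat1, Shmt2, Mthfd2, Mthfd1l and Aldh1l2 lie below the 5th percentile of all genes (−1.49), while Psph, Shmt1 and Mthfd1 lie between the 5th percentile and the 25th (−0.52).

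Total counts ranged from 16489813 to 51271226 per library, and the lowest count of any of the 9 enzymes was 20, for Aldh1l2 in KO replicate 3. Rtf1 itself fell from 91.2 ± 2.84 to 33.9 ± 10.03 CPM (mean ± SD, n = 3). CPM are counts relative to library totals adjusted by TMM factors. The log2 fold change of Rtf1 was −1.42 (edgeR adjusted p = 0.000755, SE 0.191), so 37.2% of the control level was still counted. KO replicates 1, 2 and 3 held 45.3, 30.4 and 26.2 CPM of Rtf1. T cell markers (7 genes, among them Cd3e, Cd3d, Cd3g, Cd4, Il17a and Il17f) summed to 2420 to 2980 CPM in control and 1470 to 1930 CPM in KO. Of these 7, Il17f (1231 to 507 CPM on average), Cd4 (486 to 254 CPM) and Il17a (292 to 92.8 CPM) were called lower, Cd3e and Cd3g were called higher (log2 fold change 0.71 and 0.72, edgeR adjusted p = 0.00242 and 0.0221), and 2 were not called. Cd3d, 1 of those 2 (−0.46, edgeR adjusted p = 0.0525), passed under the replicate block (adjusted p = 0.00566). Lists for other cells (B, myeloid, CD8 and NK, erythroid, fibroblast) each summed to at most 15.1 CPM in any library. The myeloid sum was 0.784 to 0.851 CPM in control and 2.24 to 4.37 CPM in KO, with Csf1r called higher (log2 fold change 1.72, edgeR adjusted p = 0.0256). Lyz2 (0, 2 and 4 counts in control; 46, 11 and 8 in KO) and Itgax (1, 2 and 0; 20, 15 and 6) were too scarce to be tested, and Itgam had at most 3 counts in any library. In the CD8 and NK list (7.05 to 10.9 CPM in control, 8.47 to 15.1 CPM in KO) 2 of 4 tested genes, Nkg7 and Eomes, were called higher (log2 fold change 2.76 and 3.78, edgeR adjusted p = 0.00209 and 0.000946), and Klrb1c and Ncr1 had no counts. The part of such other cells in the values of the 9 enzymes was not tested. Replicate 3 of each group carried Y-linked counts (11376 and 5147) that the other libraries lacked (1 to 3). Its cells were therefore not of the same origin as those of replicates 1 and 2.

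The promoters of 4 genes are shown because they form mitochondrial and cytosolic pairs (Shmt2 with Shmt1 and Mthfd1l with Mthfd1) whose ratios were lower in every KO library than in any control library. Each window runs from 250 bases before to 50 after the annotated start, in the gene's 5′ to 3′ direction, from RefSeq on GRCm38.p6. Capitals mark CCAAT, the box bound by NF-Y, and GGGCGG, the GC box bound by SP1, on either strand.

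Shmt2, chr10:127522395-127522694, minus strand: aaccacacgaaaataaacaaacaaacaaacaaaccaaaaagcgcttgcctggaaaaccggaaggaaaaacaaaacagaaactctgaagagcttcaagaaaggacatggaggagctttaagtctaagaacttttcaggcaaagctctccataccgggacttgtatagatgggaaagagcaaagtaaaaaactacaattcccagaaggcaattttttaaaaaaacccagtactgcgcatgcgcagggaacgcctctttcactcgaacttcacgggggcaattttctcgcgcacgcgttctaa

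Shmt1, chr11:60811216-60811515, minus strand: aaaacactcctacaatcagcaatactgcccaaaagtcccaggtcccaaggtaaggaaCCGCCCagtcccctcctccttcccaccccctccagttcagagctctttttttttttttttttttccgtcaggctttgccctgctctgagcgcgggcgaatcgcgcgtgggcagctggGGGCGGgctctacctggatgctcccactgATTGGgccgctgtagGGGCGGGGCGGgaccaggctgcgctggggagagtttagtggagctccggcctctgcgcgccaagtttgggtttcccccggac

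Mthfd1l, chr10:3972825-3973124, plus strand: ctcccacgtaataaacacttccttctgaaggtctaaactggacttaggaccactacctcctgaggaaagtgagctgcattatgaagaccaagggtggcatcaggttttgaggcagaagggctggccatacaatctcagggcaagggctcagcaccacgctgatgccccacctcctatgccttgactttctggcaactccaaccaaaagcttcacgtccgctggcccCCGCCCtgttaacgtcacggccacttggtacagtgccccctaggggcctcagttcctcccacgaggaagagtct

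Mthfd1, chr12:76254982-76255281, plus strand: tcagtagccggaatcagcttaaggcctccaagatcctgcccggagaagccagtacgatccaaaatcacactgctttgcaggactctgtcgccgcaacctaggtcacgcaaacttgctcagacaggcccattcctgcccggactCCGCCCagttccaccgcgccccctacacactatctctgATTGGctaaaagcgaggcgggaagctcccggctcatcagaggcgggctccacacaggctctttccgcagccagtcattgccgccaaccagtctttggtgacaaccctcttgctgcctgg

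Of the 9 enzymes, 8 had a promoter in the table (9 windows, since Psat1 had 2 starts). None of these windows held TGATGNAA, the core letters of the element bound by ATF4 with C/EBP partners, or CACGTG, the E-box bound by MYC with MAX, on either strand. These letters occur in 3.97% and 7.15% of all 32851 promoter windows of the same length, so most windows lack them. CCAAT occurred in windows of 6 of the 8 genes (Phgdh, Psat1, Psph, Shmt1, Mthfd1 and Mthfd2), beside 41.1% of all genes with a window. GGGCGG occurred in 5 of the 8 (Psat1, Psph, Shmt1, Mthfd1 and Mthfd1l), beside 38.2% of all genes. Shmt2 had none of the 4 motifs in its window. These 2 boxes were added after the first 2 motifs had been searched, and a match of letters shows no binding.

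The 3 enzymes of serine synthesis act in series (gene positions here are on GRCm38). Phgdh (chr3:98313170-98339990, minus strand), which oxidises phosphoglycerate in the committed step, held 305, 373 and 219 CPM in control replicates 1, 2 and 3, and 97.3, 63.02 and 50.7 CPM in KO replicates 1, 2 and 3. Every KO library lay below every control library, and the log2 fold change was −2.09 (edgeR adjusted p = 0.000641, SE 0.269). Of the 50-base stretches of Phgdh transcripts, 47.8% occur in other annotated transcripts, most often those of Gm7901, so its level is uncertain where the counting dropped or divided such reads.

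Psat1 (chr19:15904678-15947337, minus strand), the aminotransferase that makes phosphoserine, held 395, 454 and 312 CPM in control and 127, 83.4 and 68.7 CPM in KO. The groups were again apart, with a log2 fold change of −2.06 (edgeR adjusted p = 0.000425, SE 0.237). Psph (chr5:129765558-129787449, minus strand), the phosphatase that releases serine, held 169.6, 195.9 and 144 CPM in control and 90.6, 81.4 and 71.07 CPM in KO. Its groups did not overlap either, and its log2 fold change of −1.07 (edgeR adjusted p = 0.000821, SE 0.147) left 47.7% of the control level, against 23.5% for Phgdh and 24% for Psat1. Of the exonic bases of Psph, 10.4% overlap Cct6a on the opposite strand, and the strand setting of the counting is not given in the sources used here. Cct6a is not listed in the count table, so its own level is unknown here. The share of Psph counts that come from it was not tested.

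**Figure D2:**
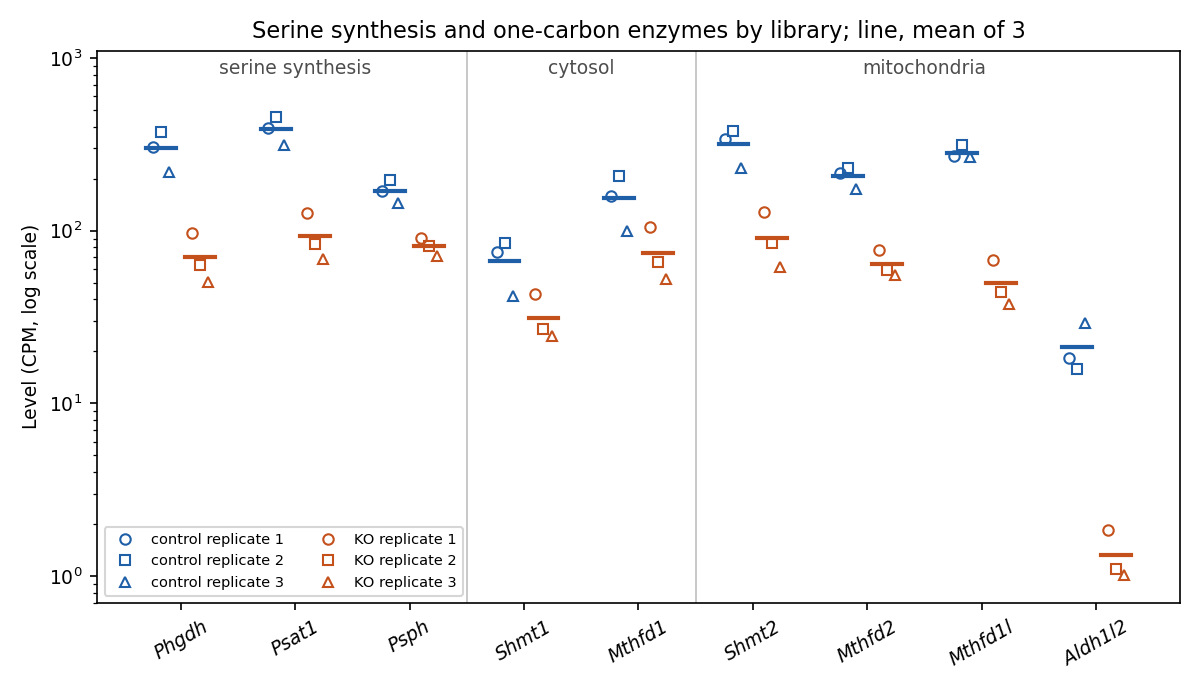
CPM of each enzyme on a log axis, with 1 point per library (circle, square and triangle for replicates 1, 2 and 3; blue for control, orange for KO) and a line at each mean of 3. Only in Shmt1 and Mthfd1 does a KO library (replicate 1, at 42.7 and 105 CPM) reach above a control library (replicate 3, at 41.9 and 99.9 CPM).

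In the cytosol, Shmt1 (chr11:60788104-60811718, minus strand), the hydroxymethyltransferase that interconverts serine and glycine, held 74.7, 84.4 and 41.9 CPM in control and 42.7, 26.8 and 24.7 CPM in KO. Its log2 fold change was −1.09 (edgeR adjusted p = 0.0137, SE 0.287), but KO replicate 1 lay just above control replicate 3. Of its exonic bases, 4.74% overlap Smcr8, which was called higher in KO (log2 fold change 1.08, edgeR adjusted p = 0.000299). Mthfd1 (chr12:76255298-76319803, plus strand), the trifunctional enzyme that loads formate onto folate, held 159.6, 205.8 and 99.9 CPM in control and 105, 65.9 and 52.2 CPM in KO. Here too KO replicate 1 exceeded control replicate 3, and the log2 fold change was −1.06 (edgeR adjusted p = 0.0201, SE 0.304). Both genes were lower in KO within each pair of equal replicate number, with log2 differences of −1.66 to −0.76 for Shmt1 and −1.64 to −0.60 for Mthfd1.

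These 2 calls were the least firm of the 9. With the replicate block, which pairs equal numbers, both held, with the largest adjusted p of the 9 (edgeR, 0.000804 for Shmt1 and 0.000899 for Mthfd1). The fits that left out 1 library had no such block. Without control replicate 2 both calls were lost (log2 fold change −0.90 and −0.81, edgeR adjusted p = 0.0542 and 0.0753). Both were also lost without KO replicate 2 (−0.99 and −0.97, adjusted p = 0.0605 and 0.0775). Mthfd1 alone was also lost without KO replicate 3 (−0.86, edgeR adjusted p = 0.0632). The calls therefore numbered 7 of 9 without either library numbered 2 and 8 of 9 without KO replicate 3, while the other 7 enzymes were called in each fit that left out 1 library.

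In mitochondria, Shmt2 (chr10:127517123-127522444, minus strand), the counterpart of Shmt1, held 339, 379.9 and 230.2 CPM in control and 128, 84.2 and 61.3 CPM in KO, with no overlap. Its log2 fold change was −1.79 (edgeR adjusted p = 0.0014, SE 0.279). Mthfd2 (chr6:83305691-83325908, minus strand), the dehydrogenase and cyclohydrolase of the mitochondrial route, held 216, 229.5 and 174 CPM in control and 77.5, 59.4 and 55.3 CPM in KO. This decline of 1.69 log2 units had the smallest SE after that of Psph (0.165, edgeR adjusted p = 0.000224).

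Mthfd1l (chr10:3973118-4167081, plus strand), which releases formate from formyltetrahydrofolate, held 270.4, 312 and 267 CPM in control and 67.8, 44.4 and 37.7 CPM in KO. Its control libraries were the most alike of the 9 genes (coefficient of variation 8.84%), and its log2 fold change of −2.50 (edgeR adjusted p = 0.000136, SE 0.213) left 17.6% of the control level. Of all tested genes, 0.995% had a lower log2 fold change.

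Aldh1l2 (chr10:83487450-83534140, minus strand), which oxidises formyltetrahydrofolate to CO2 and yields NADPH, was by far the scarcest of the 9. It held 18.3, 15.9 and 29.2 CPM in control (301, 771 and 1229 counts) and 1.86, 1.09 and 1.02 CPM in KO (49, 41 and 20 counts). The KO libraries kept 6.26% of the control mean, and the log2 fold change was −3.99 (edgeR adjusted p = 0.000124, SE 0.332). Of all tested genes, 0.210% had a lower log2 fold change. Of its exonic bases, 14.1% overlap D10Wsu102e on the opposite strand, which held 78.7 CPM in control and 60.5 CPM in KO, and the share of Aldh1l2 counts that come from it was not tested.

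In 7 of the 9 enzymes, no KO library reached the lowest control library, a pattern seen in 28.0% of the tested genes. Within groups the enzymes tended to share their highest and lowest library. In control, replicate 2 was the highest and replicate 3 the lowest for 8 of the 9, the exception being Aldh1l2, in which replicate 3 was the highest and replicate 2 the lowest. In KO, replicate 1 was the highest and replicate 3 the lowest for all 9. Rtf1 and Mki67 (504, 285 and 269 CPM in KO) had that KO order too, while Cd3e (289, 347 and 341 CPM in KO) did not. How many of all tested genes share these orders was not counted, so they are not shown to be particular to the enzymes.

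Compared per kilobase of exon (RPKM, using the merged exons of GENCODE M21), the control cells held most Phgdh (120 ± 31.2, SD, n = 3), followed by Shmt2 (102 ± 24.9) and Psat1 (91.0 ± 16.7). The libraries of these 3 overlapped. Mthfd1l (63.8 ± 5.64) and Mthfd2 (59.2 ± 8.27) came next and overlapped each other, then Psph (39.2 ± 5.99) and Mthfd1 (34.9 ± 11.96), which also overlapped. Shmt1 (17.3 ± 5.75) and Aldh1l2 (2.82 ± 0.944) stood apart from their neighbours.

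In KO the order was less clear-cut. From Shmt2 (29.3 ± 10.9 RPKM) and Phgdh (28.3 ± 9.72) through Psat1 (21.8 ± 7.07), Psph (18.7 ± 2.26), Mthfd2 (18.4 ± 3.39), Mthfd1 (16.8 ± 6.21) and Mthfd1l (11.3 ± 3.56) to Shmt1 (8.08 ± 2.54), each gene overlapped the next. Mthfd1l ranked 4 of 9 in control and 7 of 9 in KO. Aldh1l2 remained last, at 0.176 ± 0.0621 RPKM.

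**Figure D3:**
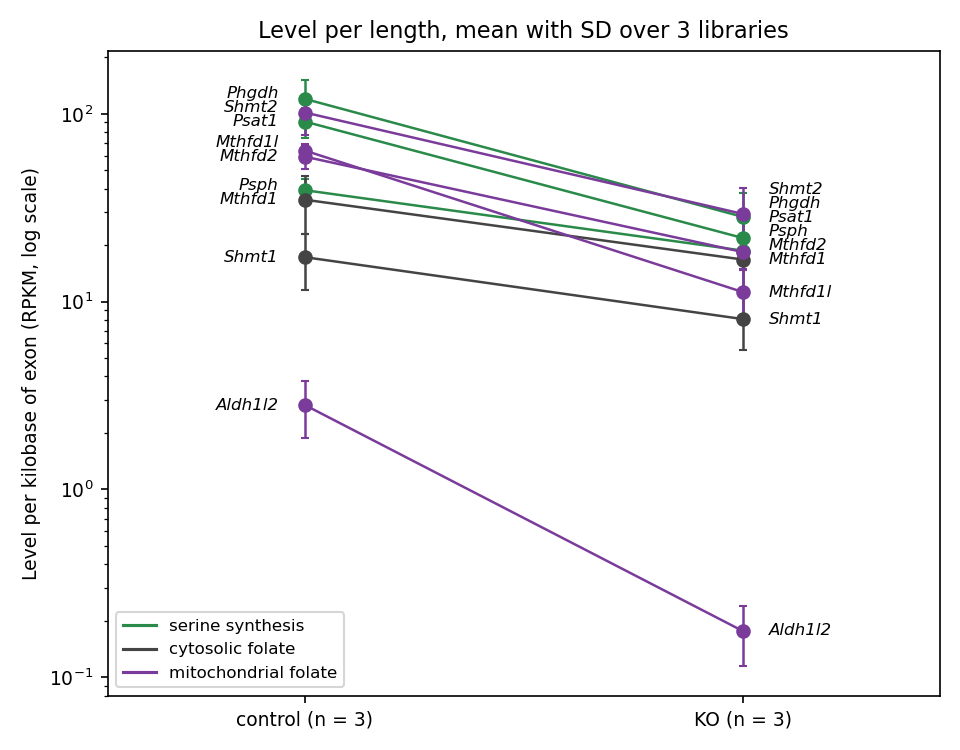
Level per kilobase of exon (RPKM, log axis) of each enzyme in control and KO, mean with SD over 3 libraries, coloured by pathway. The steepest lines are those of Aldh1l2 (2.82 to 0.176) and Mthfd1l (63.8 to 11.3), and the lines of Mthfd1l and Mthfd1 cross.

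Whether RNA of the mitochondrial enzymes declined more than that of their cytosolic counterparts was examined with ratios within each library. Such ratios do not depend on scaling between libraries. Shmt2 exceeded Shmt1 per kilobase by 5.66, 5.62 and 6.87 times in control and by 3.74, 3.93 and 3.10 times in KO. The ratio was thus 1.69-fold lower in KO, with no overlap. The Mthfd1l to Mthfd1 ratio was 1.70, 1.52 and 2.67 in control and 0.645, 0.674 and 0.724 in KO. This 2.80-fold decline took the ratio of RNA from above 1 to below 1. Mthfd2 to Mthfd1 went from 1.72, 1.42 and 2.22 to 0.938, 1.15 and 1.35, which was 1.55-fold lower.

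Mthfd2 was also set against Mthfd2l, its mitochondrial paralogue. That ratio was 72.3, 110.7 and 73.7 in control and 50.9, 57.7 and 53.9 in KO, a decline of 1.55-fold. These 4 ratios were all fixed in the design, with earlier results of these data known. In each ratio, every KO library lay below every control library. Each gave p = 0.1 in the exact permutation test (two-sided; 0.1 after Benjamini-Hochberg adjustment over the 4), which is the smallest value that 3 libraries against 3 allow, so none can pass 0.05.

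Another 4 ratios were added after the values had been seen and are descriptions. The groups overlapped in Psat1 to Phgdh (0.758, 0.711 and 0.835 in control; 0.760, 0.774 and 0.791 in KO) and its direction turned when control replicate 2 was left out (log2 difference 0.016 with all libraries and −0.038 without it). The ratios of Psph to both were higher in every KO library than in any control library. Psph to Phgdh went from 0.320, 0.301 and 0.378 to 0.534, 0.741 and 0.804, and Psph to Psat1 from 0.422, 0.424 and 0.453 to 0.704, 0.958 and 1.02. Aldh1l2 to Shmt2 went from 0.0224, 0.0174 and 0.0526 to 0.00608, 0.00545 and 0.00705, which was 4.44-fold lower.

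**Figure D4:**
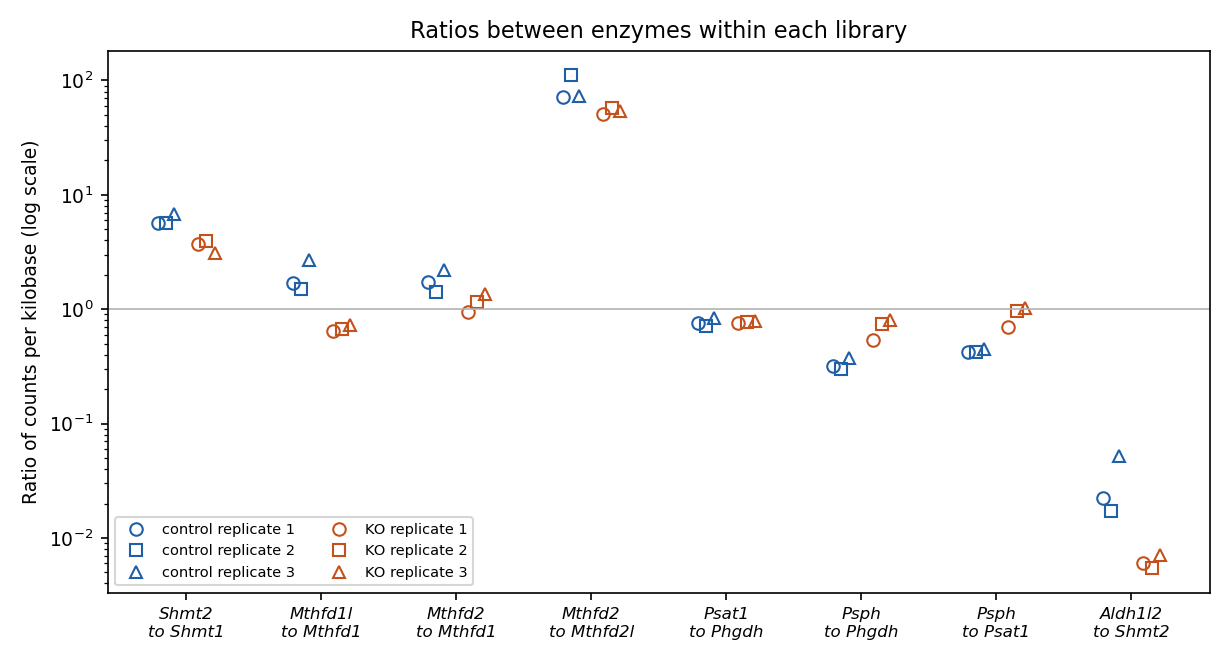
Ratio of counts per kilobase between pairs of enzymes in each library, on a log axis; the first 4 were fixed in the design, the last 4 added later. Control and KO libraries do not overlap in any pair except Psat1 to Phgdh, and the Mthfd1l to Mthfd1 ratio lies above 1 in all control libraries and below 1 in all KO libraries.

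The genes with the most similar profiles were sought as the 2 protein-coding genes (mean of at least 5 CPM) whose log2 CPM over the 6 libraries, centred on its own mean, lay nearest by root mean square distance. For Shmt1 these were Exo1, an exonuclease of DNA repair (distance 0.0447), and Tyms, the thymidylate synthase (0.0628). For Mthfd1 they were Asf1b, a histone chaperone (0.0487), and Ercc6l, a helicase of mitosis (0.0684). Tyms showed the same low control replicate 3 and high KO replicate 1 as Shmt1, with 94.4, 104 and 48.3 CPM in control and 53.98, 30.5 and 30.96 CPM in KO.

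Shmt2 lay nearest to the histone genes Hist1h4h (0.0738) and Hist1h4n (0.0918). Such histone genes are near-identical copies of one another, so their counts are uncertain. Mthfd1l lay nearest to Asns, the asparagine synthetase (0.0716), and Galk1, a galactokinase (0.0951). Phgdh lay nearest to Nupr1 (0.154) and Slc7a5 (0.158), and Psat1 to Slc7a5 (0.121), a large neutral amino acid transporter, and Ube2t (0.126). Psph lay nearest to Hax1 (0.0481) and Xrcc6 (0.0505), and Mthfd2 to Mif (0.0593) and Ankrd37 (0.0751). For Aldh1l2, Mboat2 lay at a distance of 0.238.

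The 12 proliferation markers were also lower in KO. All 12 were called lower (median log2 fold change −1.22), beside 22.9% of all tested genes. Their sum was 3810 to 5820 CPM in control and 1590 to 2770 CPM in KO. Pcna (−0.65, edgeR adjusted p = 0.0468) overlapped between the groups. Mki67 was highest in control replicate 1 (1083, 986 and 862 CPM in control), unlike the 9 enzymes. The part of these markers in the decline of the enzymes was not tested.

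The other genes of the pathway, in 6 lists of carriers and enzymes around these 9, were called in both directions. Of 49 genes 40 were tested, 15 were called lower, 9 higher and 16 were not called, beside 22.9% lower and 23.2% higher among all tested genes, with a median log2 fold change of −0.39. The share called higher was thus near that of all genes. Leaving out 1 library gave 9 (without KO replicate 2) to 19 lower calls (without control replicate 3), and 4 (without control replicate 1) to 9 higher calls. Higher calls numbered 5 without KO replicate 2 and 5 without KO replicate 3.

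Among 11 tested folate enzymes 4 were called lower, 3 higher and 4 were not called (median −0.45). Atic, of purine synthesis, was lower (−0.70, edgeR adjusted p = 0.012), a call lost without KO replicate 2 (−0.61, adjusted p = 0.0582). Mthfd2l was low in both groups, 4.70 ± 0.874 and 2.26 ± 0.545 CPM (−1.05, edgeR adjusted p = 0.017), and lost its call without KO replicate 2 (−0.94, adjusted p = 0.0713) or KO replicate 3 (−0.96, adjusted p = 0.0623).

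Tyms was called lower (−1.09, edgeR adjusted p = 0.0195), but not without control replicate 1 (−1.07, adjusted p = 0.0548), control replicate 2 (−0.90, 0.0739), KO replicate 2 (−0.95, 0.0787) or KO replicate 3 (−0.96, 0.0645). Gart and Fpgs, the ligase that retains folate in the cell, were not called (−0.45 and −0.49, edgeR adjusted p = 0.0954 and 0.062), but both passed under the replicate block (adjusted p = 0.0188 for Gart, 0.0151 for Fpgs) and without control replicate 3 (−0.70 and −0.68, adjusted p = 0.005 and 0.0122). Fpgs was also called by DESeq2 (adjusted p = 0.0465) and without KO replicate 1 (−0.68, edgeR adjusted p = 0.0238).

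Ggh went the other way. It encodes a hydrolase that shortens folate's glutamate tail and lets it leave the cell, and it rose from 12.6, 15.6 and 10.9 CPM to 27.5, 35.2 and 52.1 CPM, with no overlap (1.55, edgeR adjusted p = 0.00151, SE 0.244). Mthfs, which recycles formyltetrahydrofolate, was called higher (0.66, edgeR adjusted p = 0.0324). That call was lost without control replicate 1 (0.60, adjusted p = 0.0939), control replicate 2 (0.53, 0.0803), KO replicate 2 (0.66, 0.0884) or KO replicate 3 (0.60, 0.103), and 16.4% of its 50-base stretches recur elsewhere, mainly in Mthfsl.

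**Figure D5:**
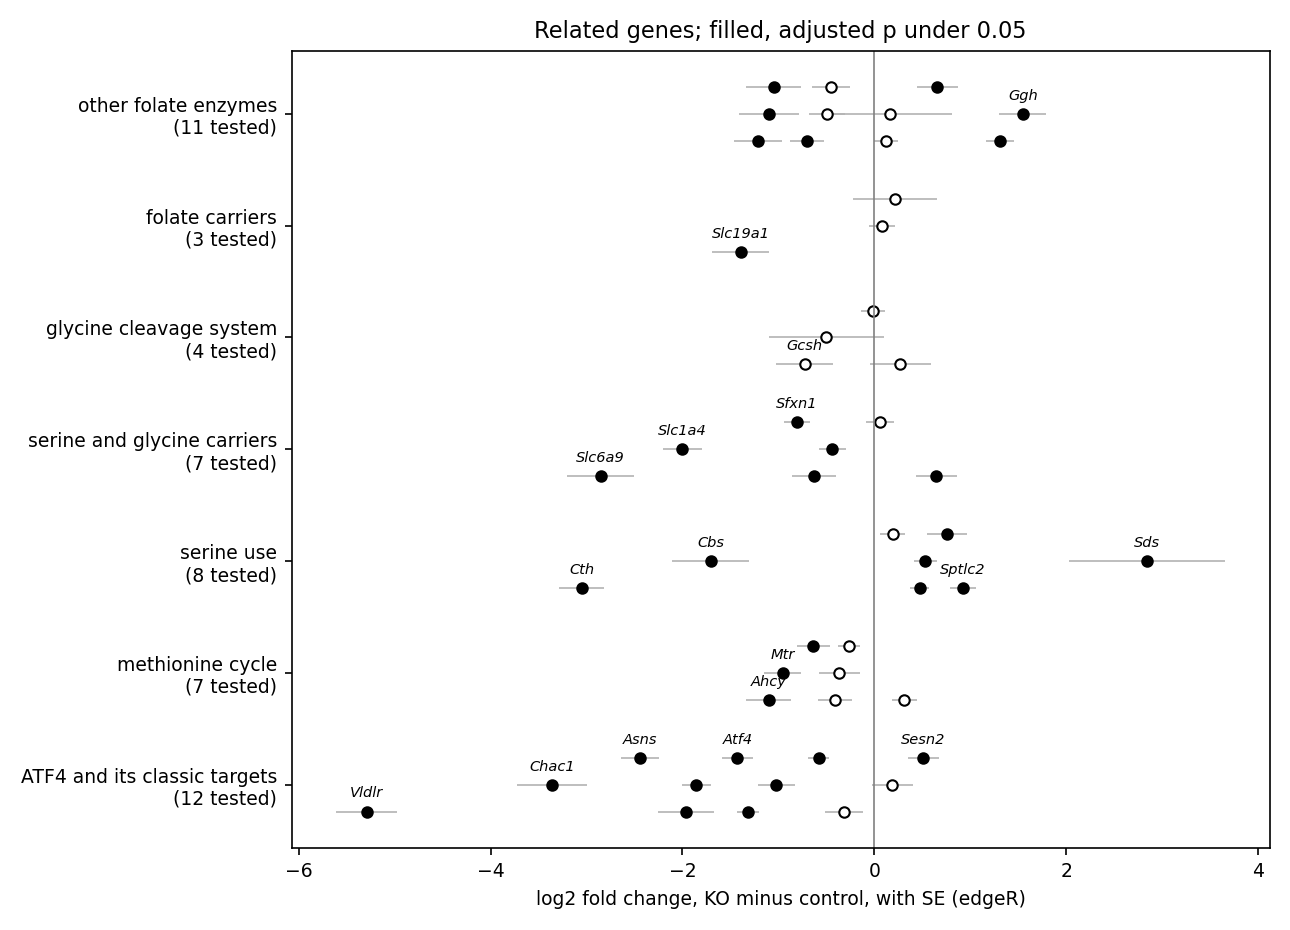
Log2 fold change (KO minus control) with SE of the tested genes in the 6 pathway lists and the ATF4 list, 1 row per list; filled points have an edgeR adjusted p under 0.05. Slc6a9 (−2.85), Cth (−3.05) and Vldlr (−5.29) lie farthest to the left of their lists, while Ggh (1.55) lies to the right.

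Of the folate carriers, Slc19a1, the reduced folate carrier of the plasma membrane, fell from 57.8, 59.03 and 42.8 CPM to 31.2, 16.1 and 13.4 CPM (log2 fold change −1.39, edgeR adjusted p = 0.00553, SE 0.297). Slc25a32, which brings folate into mitochondria, averaged 32.2 ± 2.71 CPM in control and 33.9 ± 3.64 CPM in KO (SD, n = 3; fitted log2 change 0.077, edgeR adjusted p = 0.665, SE 0.135). Its direction turned without control replicate 3 (−0.049) and without KO replicate 1 (−0.020). Slc46a1 stayed under 2 CPM on average in both groups and was not called, and Folr1 and Folr2 were not tested.

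Serine and glycine carriers gave 5 lower calls and 1 higher among 7 tested (median −0.63). Slc1a4, a transporter of serine and other small neutral amino acids, held 44.7, 41.1 and 40.7 CPM in control and 13.4, 7.58 and 10.7 CPM in KO (log2 fold change −2.0, edgeR adjusted p = 0.000251, SE 0.204). Slc6a9, a glycine transporter, held 9.73, 8.50 and 8.96 CPM in control and 1.97, 0.908 and 0.864 CPM in KO (−2.85, edgeR adjusted p = 0.000521, SE 0.348), although 30.2% of its exonic bases overlap genes on the opposite strand. Both were thus clear of their control range.

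Sfxn1, the mitochondrial serine transporter, fell from 144.7 ± 10.95 to 82.5 ± 12.95 CPM (mean ± SD, n = 3; fitted log2 change −0.81, edgeR adjusted p = 0.0019, SE 0.135). The other calls of this list were Slc1a5 (−0.44, adjusted p = 0.0336), Sfxn2 (−0.63, adjusted p = 0.0485) and, higher, Sfxn3 (0.65, adjusted p = 0.0351), all by edgeR. They held in 1, 2 and 2 of the 6 fits that left out 1 library. Slc1a5 was lost without each library except control replicate 3 (adjusted p = 0.0695 to 0.118), Sfxn2 without control replicates 2 and 3 and KO replicates 1 and 2 (0.0549 to 0.168), and Sfxn3 without control replicates 1 and 2 and KO replicates 2 and 3 (0.0761 to 0.142). Slc25a38, the mitochondrial glycine carrier, gave 0.059 (adjusted p = 0.769), and turned without control replicate 1 (−0.0063), without control replicate 3 (−0.094) and with the libraries numbered 1 and 2 only (−0.040).

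None of the 4 glycine cleavage genes was called by edgeR, and 1 of them, Gcsh, had an unadjusted p under 0.05 (0.0387). Gldc was scarce, with 7 to 38 counts per library, so its lack of a call says little. Amt averaged 2.87 CPM in control and 3.45 CPM in KO. Gcsh, the lipoyl carrier protein, gave −0.73 (edgeR adjusted p = 0.0753, SE 0.299) and passed the threshold with the replicate block (−0.75, adjusted p = 0.00267), as it did by DESeq2 (0.032) and with no filter on low counts (0.0333). It was also called without control replicate 3 (−1.02, edgeR adjusted p = 0.00806) and without KO replicate 1 (−1.02, adjusted p = 0.0294). Dld, which this system shares with other dehydrogenases, stood at 145 ± 13.2 and 144 ± 14.8 CPM (SD, n = 3).

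Among 8 tested genes that use serine 5 were called higher, 2 lower and 1 was not called (median 0.50). Cth, which makes cysteine by transsulfuration, fell from 17.9, 17.3 and 18.6 CPM to 2.89, 1.74 and 1.88 CPM (log2 fold change −3.05, edgeR adjusted p = 8.9e-05, SE 0.233). Cbs, which joins serine to homocysteine, was scarce and also lower (0.908 ± 0.163 and 0.276 ± 0.0417 CPM, SD, n = 3; −1.71, edgeR adjusted p = 0.00832, SE 0.398). Sptlc2, a subunit of the serine palmitoyltransferase that starts sphingolipid synthesis, rose from 61.8 ± 8.54 to 117 ± 10.5 CPM (0.92, edgeR adjusted p = 0.001, SE 0.133).

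Its partner Sptlc1 (0.53, edgeR adjusted p = 0.00688) and Ptdss1, a phosphatidylserine synthase (0.47, adjusted p = 0.00585), were also higher, and both lost the call only without control replicate 1 (0.41 and 0.40, adjusted p = 0.067 and 0.0613). Ptdss2 was not called (0.19, edgeR adjusted p = 0.274). Srr, the serine racemase, was higher (0.76, edgeR adjusted p = 0.0174), but not without control replicate 1 (0.72, adjusted p = 0.0521), KO replicate 2 (0.75, 0.0603) or KO replicate 3 (0.67, 0.0643). Sds, a serine dehydratase, had 4, 0 and 4 counts in control and 17, 21 and 13 in KO. It was called higher (edgeR adjusted p = 0.0201, with 29.6% of its exonic bases overlapping opposite-strand genes), but not without KO replicate 1, 2 or 3 (adjusted p = 0.0538, 0.0578 and 0.0536).

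In the methionine cycle 3 of 7 tested genes were called, all lower (median −0.41). Mtr, the methionine synthase that takes its methyl group from folate, fell from 62.5 ± 6.27 to 32.2 ± 8.78 CPM (mean ± SD, n = 3; fitted log2 change −0.96, edgeR adjusted p = 0.00448, SE 0.195). Ahcy, which clears adenosylhomocysteine, fell from 218 ± 50.4 to 102 ± 29.7 CPM (−1.10, edgeR adjusted p = 0.00526, SE 0.232), with 68.7% of its 50-base stretches shared with other transcripts, mainly Gm4737. Ahcyl2 was lower (−0.64, edgeR adjusted p = 0.0159), but not without KO replicate 2 (−0.62, adjusted p = 0.0598), and stood at the threshold without KO replicate 3 (−0.61, adjusted p = 0.05).

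Mat2a, which makes adenosylmethionine, gave −0.37 (edgeR adjusted p = 0.191) and was called without control replicate 3 (−0.64, adjusted p = 0.00555). Mtrr (−0.41, edgeR adjusted p = 0.089) and Mat2b (0.31, adjusted p = 0.0775) were not called, but both passed under the replicate block (adjusted p = 0.0408 for Mtrr, 0.0329 for Mat2b) and without KO replicate 1 (−0.55 and 0.40, adjusted p = 0.0499 and 0.0465). Mtrr was also called without control replicate 3 (−0.58, edgeR adjusted p = 0.0259).

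ATF4, a transcription factor induced by amino acid shortage, is known to activate several of the 9 enzymes, and its own transcript was lower. Atf4 held 396, 455 and 309 CPM in control and 161, 133 and 138 CPM in KO, with no overlap (log2 fold change −1.43, edgeR adjusted p = 0.000401, SE 0.163). In the list of Atf4 and 11 further genes, 9 of 12, Atf4 included, were called lower and 1 higher (median −1.37). Among all tested genes 22.9% were called lower and 23.2% higher. Asns fell from 166, 175 and 151 CPM to 40.6, 25.6 and 24.4 CPM (−2.44, edgeR adjusted p = 0.000116, SE 0.199). Chac1, a glutathione-degrading enzyme, fell from 16.2 ± 1.21 to 1.55 ± 0.881 CPM (−3.36, edgeR adjusted p = 0.000334), and Trib3, a pseudokinase, from 50.5 ± 2.50 to 13.9 ± 2.28 CPM (SD, n = 3; −1.86, adjusted p = 0.00012).

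Not all of the ATF4 list was called lower. Ddit3 (−0.31, edgeR adjusted p = 0.22) and Cebpb (0.19, adjusted p = 0.495) were not called. Sesn2, a stress-induced inhibitor of mTORC1, was higher (49.3 ± 5.37 and 70.2 ± 13.1 CPM, SD, n = 3; 0.51, edgeR adjusted p = 0.0281). That call held in 1 of the 6 fits without a library, being lost without control replicates 1, 2 and 3 (adjusted p = 0.0603, 0.0922 and 0.0701) and KO replicates 1 and 3 (0.0908 and 0.091). Whether the decline of Atf4 bears on the 9 enzymes was not tested.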

How the data were processed

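The 3 control and 3 KO RNA-seq libraries of Th17 cells were grouped by sample title, and table columns were matched by sample description. The authors deposited raw counts per gene symbol, neither normalized nor pooled as far as the values show. STAR, featureCounts, DESeq2 and the build mm10 are named in the submitters' processing notes, without versions. Annotation, strand setting and treatment of multimapping reads are not given in the sources used here. All columns were mapped and every line had a gene name.

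The whole table was fitted with edgeR 4.0.16 (R 4.3.3): quasi-likelihood test of KO against control, TMM factors, filterByExpr, no covariate, Benjamini-Hochberg adjustment over 14268 genes, calls at 0.05. The SE is the absolute log2 fold change over the square root of F. The script was tested on simulated data. Depth was 16489813 to 51271226 counts per library. Coordinates, exon lengths and shared 50-base stretches come from GENCODE M21 (GRCm38, the build called mm10) and promoter sequences from RefSeq (GRCm38.p6). Ratios used counts plus 0.5 per kilobase of exon, with exact permutation tests.

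The 9 genes, the gene lists and the tests were chosen with earlier results of these data known. Named genes were Rtf1, the 9 enzymes, the list genes and the 2 nearest profiles per enzyme; a few of these are not reported here. Alternatives were scaling by DESeq2 size factors, by upper quartile or by library size alone, no filter, a mean count of at least 10, DESeq2 1.42.0, a replicate block, leaving out each library, and the libraries numbered 1 and 2 only. Deviations from group means correlated across genes by 0.270, 0.130 and 0.379 between libraries of equal number (control replicate 2 gave 0.204 with KO replicate 1), so equal numbers were taken as pairs, although the meaning of a number is not given in the sources used here.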

Additional observations from a re-analysis of the deposited data

How the results depend on the processing

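All 9 enzymes kept their direction in each of the 14 alternative fits, and 7 of them (all but Shmt1 and Mthfd1) kept their call in each. With the replicate block all 9 stayed called, with log2 fold changes from −3.94 for Aldh1l2 to −1.06 for Mthfd1, and among the pathway, ATF4 and proliferation lists it changed only the calls of Fpgs, Gart, Gcsh, Mtrr and Mat2b. All 9 were also called by DESeq2, under each scaling and filter, and with the libraries numbered 1 and 2 only, where Aldh1l2 was at −3.56. Leaving out 1 library left 7 to 9 enzymes called, 9 to 19 pathway list genes called lower and 4 to 9 called higher. Library size as the only scaling moved the median log2 fold change of all genes from 0.013 to 0.10. Direction turned in genes near 0: Dld (−0.012 as reported) gave 0.078 with library size only, 0.0165 with the libraries numbered 1 and 2 only, and −0.12 to 0.0655 with 1 library left out. Slc25a38 gave −0.040 with the libraries numbered 1 and 2 only. With 1 library left out, Slc25a38 ran from −0.094 to 0.135, Slc25a32 from −0.049 to 0.125, Slc46a1 from −0.11 to 0.55, Aldh1l1 from −0.29 to 0.94 and the log2 ratio of Psat1 to Phgdh from −0.038 to 0.0785. The 4 planned ratios kept their direction under each alternative. Calls lost with 1 library left out also reflect fewer samples. Slc1a5 and Sfxn2 lost their calls with library size only, and Sfxn3 with upper-quartile factors. Depth limits Aldh1l2 most among the 9 (20 to 49 counts in KO).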
